A study of Mus musculus with 5 samples.

Results

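The genes described here handle iron and heme in the lung and are 10 of the 42454 features counted, chosen by exact gene symbol, of which 10 of 10 were found. They are the ferritin chains Fth1 and Ftl1, the iron exporter Slc40a1, the iron uptake genes Tfrc, Slc11a1 and Slc11a2, the biliverdin reductases Blvrb and Blvra, and the plasma proteins Cp and Trf. Their RNA was followed in 5 single-cell RNA libraries from C57BL/6J mice, with 1 library for each condition. Newborn mice breathed air, or >95% O2 for 3 days followed by air, and lungs were taken at postnatal day (pnd) 7 or at pnd60. The libraries are air pnd7, hyperoxia pnd7, air pnd60, hyperoxia pnd60, and a C12FDG-sorted library from hyperoxia-exposed lungs at pnd7. C12FDG is a fluorogenic substrate of β-galactosidase, a marker of senescent cells, and cells positive for it were sorted from the suspensions of 3 pooled mouse lungs. The other 4 libraries were not sorted on C12FDG, and the number of mice behind each of them is not given in the sources at hand. The paper took the unsorted libraries from its authors' earlier published dataset, while the sorted library was made for the paper. No library of sorted cells from air-exposed mice was analysed here. Sorting, handling, the separate experiment and hyperoxia therefore cannot be told apart in the sorted library.

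Iron inside cells is held in ferritin, a hollow shell of heavy (Fth1) and light (Ftl1) chains, and leaves the cell through ferroportin, the product of Slc40a1. Iron arrives bound to transferrin, the product of Trf, through the transferrin receptor Tfrc, and divalent metal transporters move it out of endosomes (Slc11a2) or phagosomes (Slc11a1). Macrophages of the lung also take up red blood cells, whose heme is opened by heme oxygenase to iron, carbon monoxide and biliverdin, which biliverdin reductases (Blvra, Blvrb) then reduce to bilirubin. Ceruloplasmin, the product of Cp, is a copper-carrying ferroxidase that loads exported iron onto transferrin.

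Much of the control of these genes acts after transcription, on iron-responsive elements, which are short hairpins in the mRNA that iron regulatory proteins bind when iron is scarce. Bound before the coding sequence, as in ferritin and ferroportin, the proteins hold back translation. Bound after the coding sequence, as in the transferrin receptor, they protect the mRNA from decay. The hairpins of the members are shown because the counts below measure mRNA and not this layer of control. The motif was searched on the sense strand, for each member in 1 reference transcript. It was a C, any 5 bases, CAGTG and a base other than G, followed by 5 bases that pair with the first 5. Pairs of G with T were allowed. Of 21877 protein-coding genes 222 held it in any protein-coding transcript (1.01%). Of the 10 members 4 held it in the 1 transcript searched, so these counts are unlike measures. The motif was not in the searched transcript of the other 6 members, and their other transcripts are not covered. The sequences are from GENCODE M21 transcripts on the GRCm38 (mm10) build, read 5′ to 3′ on the sense strand, and the 6 bases of the loop are in capitals.
Fth1, chr19:9982732-9982761, plus strand, exonic, before the coding sequence: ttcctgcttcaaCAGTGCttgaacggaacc
Ftl1, chr7:45459778-45459807, minus strand, exonic, before the coding sequence: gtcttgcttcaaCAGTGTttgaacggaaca
Slc40a1, chr1:45925464-45925493, minus strand, exonic, before the coding sequence: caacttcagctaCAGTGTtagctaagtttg
Tfrc, chr16:32631219-32631248, plus strand, exonic, after the coding sequence: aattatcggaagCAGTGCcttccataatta
Tfrc, chr16:32631598-32631627, plus strand, exonic, after the coding sequence: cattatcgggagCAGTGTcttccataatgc
Tfrc, chr16:32631663-32631692, plus strand, exonic, after the coding sequence: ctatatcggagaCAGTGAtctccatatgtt
Tfrc, chr16:32631710-32631739, plus strand, exonic, after the coding sequence: aattatcgggaaCAGTGTttcccataattt
Fth1, Ftl1 and Slc40a1 thus held 1 match each, before the coding sequence, and Tfrc held 4, after it.

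On GRCm38.p6 the storage and export genes lie at chr19:9980600-9985111 (Fth1), chr7:45457944-45459886 (Ftl1) and chr1:45908070-45926532 (Slc40a1). The uptake genes lie at chr16:32608896-32632794 (Tfrc), chr1:74375014-74386057 (Slc11a1) and chr15:100387898-100424209 (Slc11a2). The reductases lie at chr7:27447978-27465981 (Blvrb) and chr2:127070629-127097084 (Blvra), and the plasma proteins at chr3:19956933-20009750 (Cp) and chr9:103208876-103230286 (Trf).

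With barcodes kept that had 700 to 8000 genes and less than 5% of counts from mitochondria, the libraries held 2308 (air pnd7), 1246 (hyperoxia pnd7), 493 (sorted), 4397 (air pnd60) and 4756 (hyperoxia pnd60) cells. They held between 7880365 and 16648251 counts, with medians from 2168 to 15529 counts per cell, the highest in the sorted library. Any pair of libraries shared 0 to 4 cell barcodes. Hemoglobin genes took 3.38% and 2.22% of the counts of kept cells at pnd7 in air and hyperoxia, 0.296% and 0.117% at pnd60, and 0.00131% in the sorted library. Clusters were named from marker genes. The summed markers of each class named from a single list were 12.9 to 1080 times higher in its cells than in the others. The naming used the same markers, so this range is no separate check. It leaves out the cluster with markers of both kinds of macrophage, which held 413 of the 493 sorted cells. Macrophage-like cells, named from the markers of alveolar macrophages or of C1q-expressing macrophages, made up 93.1% of the sorted library, with an exact binomial 95% interval from 90.5% to 95.2%, against 4.38% to 5.86% of the unsorted libraries. The sort itself sets that share. Levels are counts per 1000000 counts (CPM) of the summed cells in a library or class, with exact Poisson 95% intervals, and log2 ratios carry exact conditional binomial 95% intervals. These intervals hold counting error and nothing else. Since a condition is a single library, no spread between mice is known and no test was made, and a ratio past 2-fold with at least 100 counts over both groups is a description of these libraries.

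The sorted library stood apart from the 4 unsorted libraries in ferritin. Fth1 took 40713 CPM there, which was 4.07% of all its counts and the highest level of any feature, against 2989 CPM in air pnd7, 2861 in hyperoxia pnd7, 2870 in air pnd60 and 2806 in hyperoxia pnd60. The 4 unsorted libraries thus lay within a narrow band and the sorted library far above it. Ftl1 took 6228 CPM in the sorted library, against 435, 447, 344 and 780 CPM in the same order. Of the 5 libraries the sorted one was again the highest, and hyperoxia pnd60 stood above the other unsorted libraries. In sums over a library, more cells of a type and more RNA per cell cannot be told apart, and the macrophage-like share differed between these libraries as given above.

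The other members showed several patterns across libraries. Slc40a1 took 101 CPM in the sorted library, against 19.7 and 19.96 CPM at pnd7 in air and hyperoxia and 10.9 and 13.1 CPM at pnd60. Blvra, which reduces the main form of biliverdin, took 156 CPM after sorting, against 47.5, 46.7, 36.7 and 34.9 CPM in air pnd7, hyperoxia pnd7, air pnd60 and hyperoxia pnd60. Blvrb, the second reductase, which is abundant in red blood cells, took 151 CPM after sorting, against 77.7, 73.0, 42.9 and 44.2 CPM. These 3 genes were highest in the sorted library, and in the unsorted libraries higher at pnd7 than at pnd60. Slc11a1 took 10.99, 8.99, 17.4 and 22.0 CPM in the 4 unsorted libraries and 23.1 CPM in the sorted one. Slc11a2 took 17.7, 17.3, 33.2 and 34.3 CPM, and 26.4 CPM after sorting. Both transporters were thus higher at pnd60 than at pnd7, and the sorted library was not set apart from hyperoxia pnd60 for Slc11a1, whose intervals overlapped.

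Tfrc and Cp took the opposite order. Tfrc took 48.4, 58.9, 89.3 and 79.2 CPM in air pnd7, hyperoxia pnd7, air pnd60 and hyperoxia pnd60, and 24.9 CPM in the sorted library. Cp took 57.7, 59.4, 126 and 116 CPM, and 4.82 CPM from 38 counts after sorting. Both were lowest in the sorted library and highest at pnd60. Trf took 371, 351, 296 and 298 CPM, and 478 CPM after sorting, so that its 5 libraries lay closest together.

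**Figure D1:**
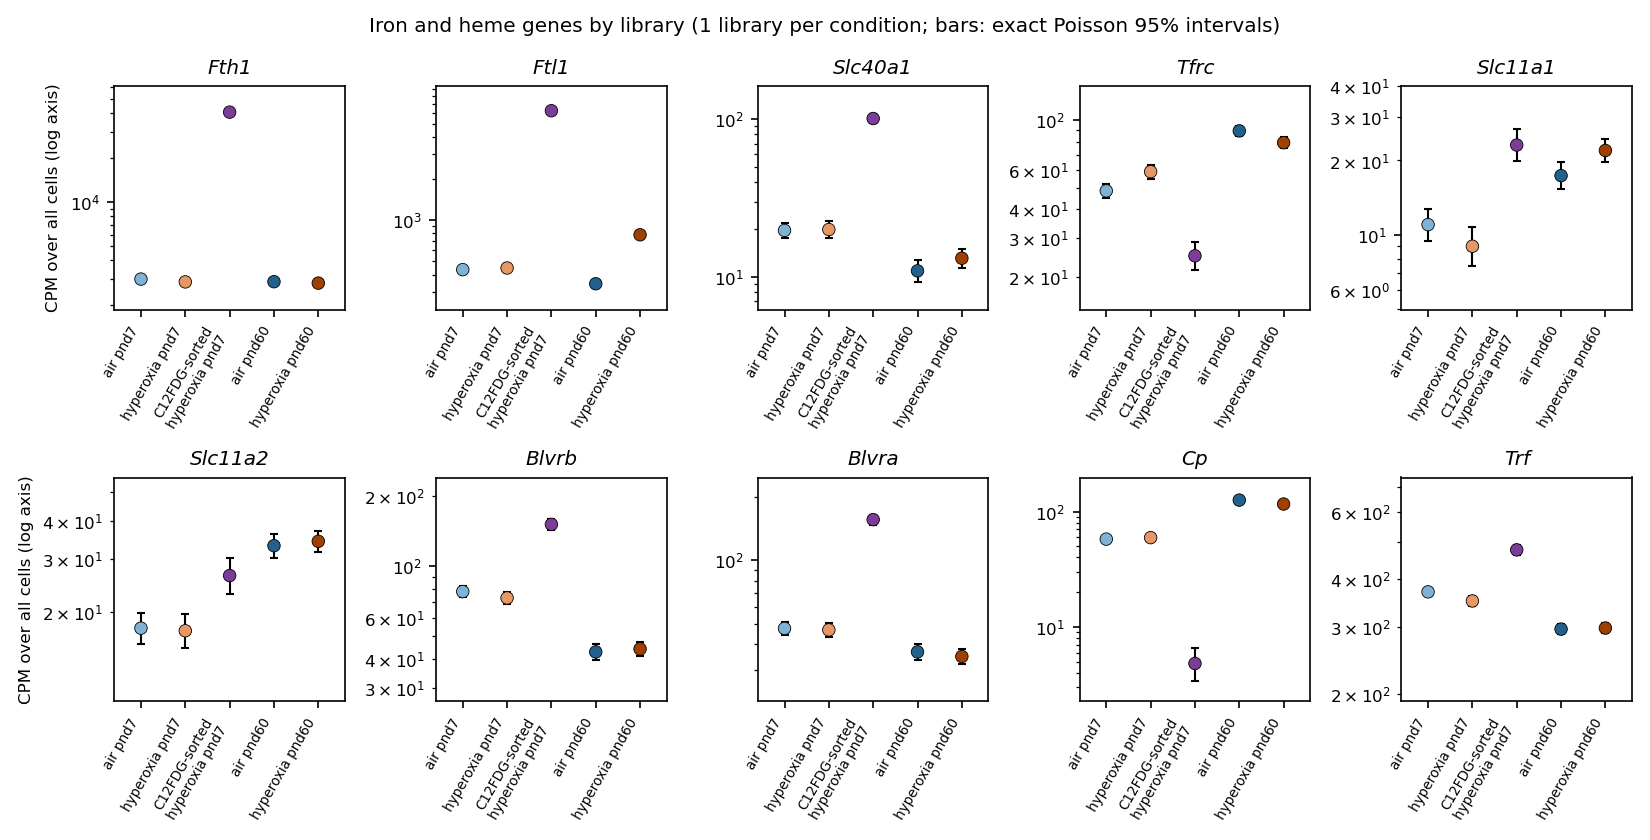
Level of each of the 10 genes in the 5 libraries, as CPM over all kept cells on a log axis, with 1 point per library and exact Poisson 95% intervals. Fth1 and Ftl1 in the sorted library lie at 40713 and 6228 CPM, above every unsorted library, while Cp and Tfrc are lowest there.

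The comparison of sorted with unsorted cells from hyperoxia-exposed mice at pnd7 asks what marks the C12FDG-positive cells. Fth1 was 14.2-fold higher in the sorted library, a log2 ratio of 3.83 (3.82 to 3.85). Ftl1 was 13.9-fold higher, with a log2 ratio of 3.80 (3.76 to 3.84). Slc40a1 was 5.05-fold, Blvra 3.35-fold, Slc11a1 2.57-fold and Blvrb 2.07-fold higher. Cp was lower by a log2 ratio of -3.62 (-4.13 to -3.15) and Tfrc by one of -1.24 (-1.48 to -1.02). Slc11a2, at 0.61, and Trf, at 0.45, were not past 2-fold. Thus 6 of 10 members were past 2-fold higher, where 8.17% of the 11340 features with enough counts were, and 2 were past 2-fold lower, where 36.4% were. The median log2 ratio of the members was 1.20, and that of all features was -0.55. Relative to that median Tfrc lay at -0.70, which is no longer past 2-fold, and Slc11a2 at 1.16, which is. With all barcodes in place of kept cells, Tfrc stood at -0.67 and Blvrb at 0.64, neither past 2-fold. Trf and Slc11a2 then each stood at 1.21, past 2-fold higher.

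Against the air pnd7 library, which shares the sorted library with the comparison above, Fth1 had a log2 ratio of 3.77, Ftl1 of 3.84, Slc40a1 of 2.36, Blvra of 1.72 and Slc11a1 of 1.07. Cp had one of -3.58, while Tfrc (-0.96), Blvrb (0.96), Slc11a2 (0.58) and Trf (0.37) were not past 2-fold. So 5 of 10 members were past 2-fold higher, against 7.81% of 11851 features, and 1 lower, against 38.5%. The median of all features was -0.59 in this comparison, and of 39 other iron and heme genes 7 were past 2-fold higher and 10 lower.

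Since the libraries differed in the cells they held, the members were next compared within macrophage-like cells, 459 in the sorted library and 73 in hyperoxia pnd7. The sorted cells came from clusters 31 (413 cells, markers of both kinds of macrophage) and 20 (46 cells), and the unsorted ones mostly from clusters 19, 20 and 36. Cluster 31 held 0 to 7 cells of any unsorted library, so it may be the sorted library rather than a type, and among its leading genes were the stress and immune genes Slc7a11, Mt1, Mt2, Gdf15 and Cxcl2. Of the 10 markers of each kind of macrophage, 0 or 1 was at 0 in any library, and the summed alveolar list lay between 3546 CPM in the sorted and 16140 CPM in the hyperoxia pnd60 macrophage-like cells. The summed C1q list lay between 3254 CPM in the sorted and 6462 CPM in the hyperoxia pnd7 cells. Both lists were thus lowest in the sorted cells, and their part in the ferritin values was not tested.

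Fth1 took 42916 CPM in the sorted macrophage-like cells, against 12238 CPM in hyperoxia pnd7, 11703 in air pnd7, 8994 in air pnd60 and 8902 in hyperoxia pnd60. Ftl1 took 6518 CPM, against 1430, 1406, 1199 and 2980 CPM in the same order. For both chains the sorted cells were above every unsorted library, and only these 2 of 9 members with enough counts were past 2-fold higher than in hyperoxia pnd7, at log2 ratios of 1.81 (1.79 to 1.84) and 2.19 (2.12 to 2.26). Of 7023 features 4.02% were past 2-fold higher and 14.1% lower, and 0 members were lower. The median of all features was -0.28 and that of the members 0.11. Against air pnd7, Fth1 stood at 1.87, Ftl1 at 2.21 and Slc11a2 at 1.62 (0.78 to 2.60, on 197 and 12 counts), so that 3 of 9 were past 2-fold higher, where 3.95% of 7142 features were, and 0 lower, where 14.5% were. With each cell thinned to 1000 counts, the Slc11a2 ratio was 0.23.

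Of the other members, 5 had ratios to hyperoxia pnd7 whose intervals span 0 in these cells. Blvra took 166 CPM in both the sorted and the hyperoxia pnd7 macrophage-like cells, and Blvrb 155 and 148 CPM. Slc40a1 took 106 and 90.1 CPM, Tfrc 20.4 and 18.9 CPM, and Slc11a1 23.4 and 29.7 CPM. Slc11a2 stood at 26.8 against 14.4 CPM, from 197 and 16 counts, a log2 ratio of 0.90 (0.16 to 1.73). Over the alternatives described at the end this ratio ran from -0.24 to 2.29, so its sign depends on the setting. Cp had 30 and 15 counts, too few for a call. Trf was lower after sorting, at 484 CPM against 701 CPM, a log2 ratio of -0.53 (-0.65 to -0.42). Slc40a1, Blvra and Blvrb, past 2-fold higher over all cells, were thus not past 2-fold within macrophage-like cells.

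The ferritin levels were high in nearly all sorted macrophage-like cells and not in a few. The median cell held 42433 CPM of Fth1, with 5th and 95th percentiles of 18192 and 63116 CPM, against a median of 9283 CPM and a 95th percentile of 27569 CPM in hyperoxia pnd7. Of the sorted cells 86.7% lay above that 95th percentile and 98.3% above the unsorted median. For Ftl1 these shares were 86.3% and 98.9%. Cluster 20, which was led by cell division genes such as Top2a and Mki67 and was present in both libraries, held 40220 CPM of Fth1 after sorting and 9619 CPM (15 cells) without.

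Few other cells were in the sorted library. Its 7 nonclassical monocyte-like cells held 42727 CPM of Fth1, its 9 type I-like cells 9785 CPM and its 8 type II-like cells 2555 CPM, against 4661, 2175 and 2217 CPM in the same classes of hyperoxia pnd7. The level in type II-like cells was thus near that of the unsorted library, while the type I-like and monocyte-like cells were above it. For Ftl1 these sorted classes held 4410, 2304 and 1655 CPM, against 919, 389 and 401 CPM, all 3 above the unsorted class. These are small numbers of cells, and RNA shared between droplets was not tested as a part of these levels.

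With coarser clusters (resolution 1), the sorted macrophage-like cells divided into 411 alveolar macrophage-like and 48 C1q macrophage-like cells, against 54 and 19 in hyperoxia pnd7. This split was chosen after the values were seen. Fth1 was higher after sorting in both kinds, at 44103 against 14148 CPM in the alveolar kind (log2 ratio 1.64) and at 32498 against 5297 CPM in the C1q kind (2.62). Ftl1 was higher by log2 ratios of 2.14 and 2.17. Ferritin therefore differed between the sorted and unsorted cells so named. In the alveolar kind, however, all 411 sorted cells fell in a cluster led by Mt1, Slc7a11 and Mt2, with 0 alveolar markers among its leading genes. Of the unsorted hyperoxia cells 18 were in that cluster and 36 in another one without sorted cells. The alveolar kind is thus not the same mix of cells on both sides. The C1q kind was a single cluster at resolution 1 only. At resolution 2 the C1q cluster (36) held 18 cells of hyperoxia pnd7 and 0 sorted cells. Whether the C1q kind is the same mix on both sides was not tested.

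The exporter and the transporters differed by kind. Slc40a1 took 79.5 CPM in sorted and 24.1 CPM in unsorted alveolar macrophage-like cells, from 524 and 21 counts, a log2 ratio of 1.72 (1.09 to 2.42). In C1q macrophage-like cells it took 336 and 330 CPM (0.02, -0.35 to 0.41). The exporter was thus higher after sorting in the alveolar kind, with the limit on its clusters given above. In the C1q kind, which also has a limit on its cluster given above, no difference of the exporter beyond counting error was seen. Blvrb was higher by 0.86 (0.50 to 1.25) in the alveolar kind and stood at -0.35 (-0.69 to 0.00) in the C1q kind. Slc11a2 stood at 0.29 (-0.77 to 1.55) in the alveolar kind and at 2.29 (1.27 to 3.54) in the C1q kind, where it took 164 CPM against 33.4 CPM from 8 counts. Trf was lower in both, at -0.46 and -0.30.

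**Figure D2:**
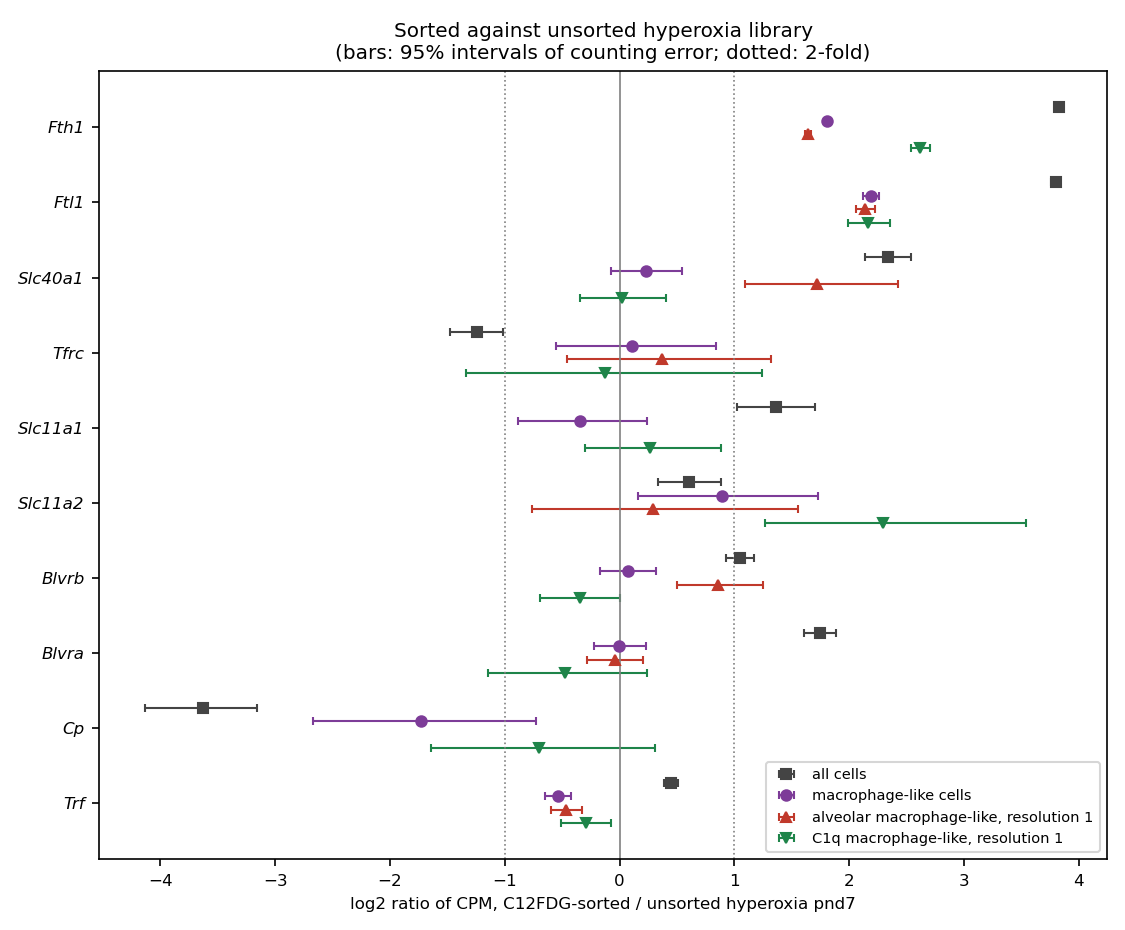
Log2 ratio of CPM between the sorted and the unsorted hyperoxia library at pnd7 for all cells, all macrophage-like cells and both kinds of macrophage-like cells at resolution 1, with 95% intervals of counting error and 2-fold marked by dotted lines. Points with at most 3 counts in a group are left out. Fth1 and Ftl1 lie right of 2-fold in every set of cells, while Slc40a1 does so over all cells and in the alveolar kind.

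Of the 49 other genes of iron and heme handling that were listed, 39 had enough counts between the sorted and the unsorted hyperoxia library. Of these, 10 were past 2-fold higher, where 8.17% of 11340 features were, and 11 lower, where 36.4% were. Their median was -0.57, near that of all features at -0.55. Hmox1, heme oxygenase 1, which opens the heme ring, took 7435 CPM after sorting against 77.9 CPM. The others above 2-fold were Ncoa4 (log2 ratio 2.36), which carries ferritin to lysosomes, the heme-sensing repressor Bach1 (1.96), the lysosomal heme transporter Slc48a1 (1.27), the membrane transporters Flvcr2 (1.83) and Flvcr1 (1.09), the heme synthesis enzyme Alas1 (1.79), the hemopexin receptor Lrp1 (1.20), the metal transporter Slc39a14 (1.02) and the iron sensor Fbxl5 (1.02). Lower were the copper ferroxidase Heph (-5.48, -7.77 to -3.92, on 3 counts after sorting), the hemoglobin binder Hp (-4.04), the siderophore binder Lcn2 (-2.89), the metal transporter Slc39a8 (-2.80) and the heme synthesis genes Alad (-2.17), Ppox (-1.22) and Cpox (-1.03). Steap2 (-5.01, -7.30 to -3.43), Ltf (-7.09, -12.4 to -4.60) and Bmp6 (-5.44, -8.50 to -3.57) had 3, 1 and 2 counts after sorting. Alas2, the red-cell form of the first heme enzyme, had 0 counts after sorting against 770, a log2 ratio of at most -7.22 against a floor of 3 counts.

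Within macrophage-like cells 28 of the 49 had enough counts, and Hmox1 alone of them was past 2-fold higher, at 7727 against 434 CPM, a log2 ratio of 4.16 (4.03 to 4.29). Of 7023 features 4.02% were past 2-fold higher and 14.1% lower, with a median of -0.28. The 5 lower ones were the iron regulator Hfe (-2.37), Nfs1 (-1.26), Aco1 (-1.11), which is an iron regulatory protein when it lacks its iron cluster, and the heme synthesis genes Cpox (-1.14) and Fech (-1.08). Hmox1 took 116 CPM in the macrophage-like cells of air pnd7, 123 in air pnd60 and 189 in hyperoxia pnd60. It was therefore the highest in the sorted cells, like both ferritin chains. Against air pnd7, Hmox1 (6.06) was again the only one of the 28 past 2-fold higher, and Hfe (-1.25), Aco1 (-1.20) and Nfs1 (-1.09) were past 2-fold lower. Of 7142 features 3.95% were past 2-fold higher and 14.5% lower there, with a median of -0.32.

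The comparison of hyperoxia with air at pnd7, without sorting, showed small differences. Over all cells 0 of 10 members were past 2-fold, and 0.985% of 12591 features were. The ratio farthest from 0 that excludes counting error was that of Tfrc, at 0.28 (0.14 to 0.43). Fth1 stood at -0.06 and Ftl1 at 0.04. Of the 40 other iron and heme genes with enough counts 0 were past 2-fold, with Hmox1 just under it at 77.9 against 39.4 CPM (0.98, 0.84 to 1.13). In macrophage-like cells 0 of 6 members with enough counts were past 2-fold, where 1.18% of 4331 features were, and Trf was lower by a log2 ratio of -0.29 (-0.43 to -0.16). There, Hmox1 was higher at 434 against 116 CPM (1.90) and Hfe at 71.2 against 32.8 CPM (1.12), the only 2 of 17 other iron and heme genes past 2-fold.

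Within classes, some members differed at pnd7. In C1q macrophage-like cells (16 in air and 18 in hyperoxia) Slc40a1 took 654 CPM in air and 334 CPM in hyperoxia, a log2 ratio of -0.97 (-1.44 to -0.51). Blvrb took 712 and 398 CPM (-0.84) and Trf 1855 and 1093 CPM (-0.76) in the same cells. With these clusters the 3 genes were lower in hyperoxia beyond counting error, and hemoglobin genes took 0.24% of the counts of these cells in air and 6.85% in hyperoxia, whose part in the ratios was not tested. With the C1q kind taken at resolution 1, the Slc40a1 ratio was -0.17 (-0.63 to 0.27) and the Blvrb ratio -0.37 (-0.76 to 0.02), on 21 and 19 cells, so that both intervals span 0, while Trf stood at -0.79 (-1.02 to -0.56). Trf was also lower in alveolar fibroblast-like cells, at 33.0 against 72.8 CPM (-1.14). Not every class shared this. Of 14 classes, 13 had a Trf ratio, and its interval lay below 0 in 6 and above 0 in 2. The class ratio of Trf farthest from 0 was a higher level in hyperoxia.

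At pnd60 the light chain of ferritin set the hyperoxia library apart from the air library. Ftl1 took 780 CPM in hyperoxia (12893 counts) and 344 CPM in air (5065 counts), which was 2.27-fold higher, a log2 ratio of 1.18 (1.14 to 1.23). It ranked 26th from the top among the 12928 features with enough counts. Fth1, the partner chain in the same shell, did not share this and stood at 2806 and 2870 CPM (-0.03). Ftl1 was the 1 member of 10 past 2-fold, where 0.518% of features were. Slc11a1 was higher by 0.34 (0.10 to 0.58), and Tfrc (-0.17) and Cp (-0.11) were lower by little more than their counting error. Of the 43 other iron and heme genes with enough counts, 0 were past 2-fold higher and 2 lower, namely Ltf, the iron-binding protein of neutrophils and airway glands (-2.82), and Alas2 (-1.10).

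The difference in Ftl1 ran through every class of cells. In macrophage-like cells Ftl1 took 2980 CPM in hyperoxia and 1199 CPM in air (1.31, 1.24 to 1.39), the 1 of 8 members past 2-fold, where 0.533% of 5812 features were. Of 26 other iron and heme genes with enough counts in these cells, 1 was past 2-fold, Lcn2 at -2.37. In type II-like cells it took 559 and 264 CPM (1.08), in B cell-like cells 337 and 150 CPM (1.17), and in alveolar fibroblast-like cells 536 and 197 CPM (1.44). Over the 18 classes with at least 15 cells in both libraries, the interval lay above 0 in 18, with log2 ratios from 0.71 in T cell-like cells to 2.39 in pericyte-like cells (68 and 10 counts) and a median of 1.23. Fth1 lay between -0.34 and 0.29 in the same classes.

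The other features that had a ratio in all 18 classes, 3538 with Ftl1, were looked at in the same way. Of these 3538, 4 had a ratio above 0 in all classes and 5 below 0 in all. At a limit of 0.5, chosen after the Ftl1 values were seen, Ftl1 was the 1 feature above in all classes and 0 were below -0.5 in all. At pnd7 the Ftl1 ratio was 0.04 over all cells and had an interval above 0 in 4 and below 0 in 3 of 14 classes. The barcodes that the filter on cells removed held 306 CPM in air and 888 CPM in hyperoxia at pnd60, or 523 and 1008 CPM with hemoglobin genes left out of the total, so a difference was also present outside the kept cells. Searched by symbol, the reference annotation lists 3 pseudogenes of Ftl1 (Ftl1-ps1, Ftl1-ps2 and Ftl2-ps) and 2 of Fth1 (Fth-ps2 and Fth-ps3). None of these 5 is among the features counted, and copies under other kinds of symbol were not looked for. How the counting treated reads that such copies share is not given in the sources at hand, and so Ftl1 and Fth1 counts are uncertain to that extent. The cause of the Ftl1 difference was not tested.

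**Figure D3:**
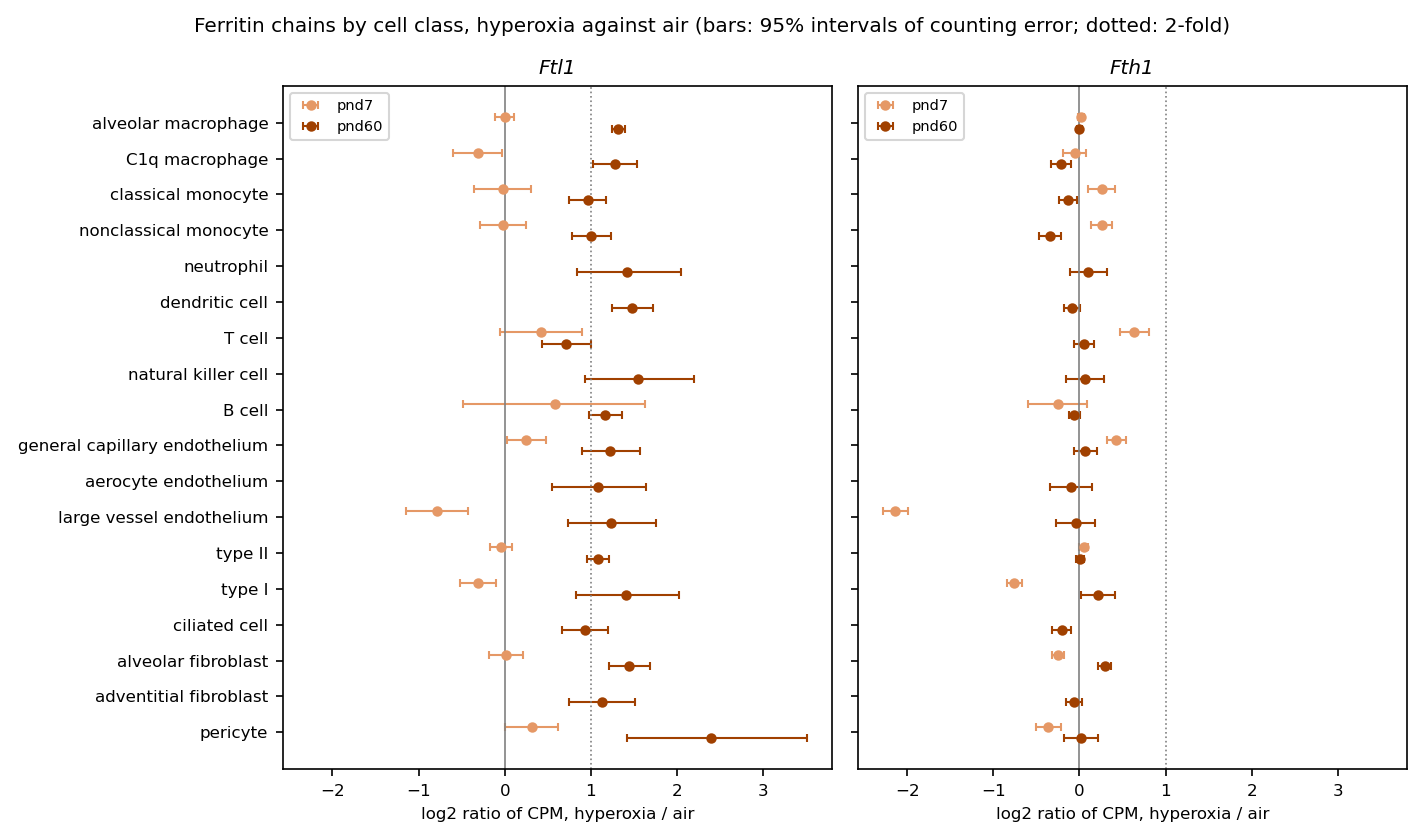
Log2 ratio of CPM between hyperoxia and air for Ftl1 and Fth1 in each marker-named cell class at pnd7 and pnd60, with 95% intervals of counting error and 2-fold marked by a dotted line. At pnd60 the Ftl1 points lie between 0.71 and 2.39 in 18 of 18 classes, while the Fth1 points lie between -0.34 and 0.29.

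The members led in several cell classes of the unsorted libraries, ranked among named classes with at least 15 cells in a library. Cells of unnamed clusters were not ranked, and these numbered 846, 323, 214 and 201 in air pnd7, hyperoxia pnd7, air pnd60 and hyperoxia pnd60. At pnd7 they included clusters with raised erythroid markers, and no cluster was named erythroid. Fth1 was highest in alveolar macrophage-like cells in 4 of 4 unsorted libraries, at 12993, 13146, 9415 and 9420 CPM in air pnd7, hyperoxia pnd7, air pnd60 and hyperoxia pnd60. These cells were 3.38% to 4.23% of the kept cells and held 27.6% to 33.8% of the counts of Fth1. At pnd60 the next class was C1q macrophage-like cells, at 6083 and 5245 CPM, below the first beyond counting error. Large vessel endothelium-like cells of air pnd7 came second there at 8444 CPM, from 17 cells, against 1922 CPM in hyperoxia pnd7. Ftl1 was highest in the same alveolar class, at 1401, 1402, 1257 and 3138 CPM, and in air pnd7 did not differ beyond counting error from C1q macrophage-like cells at 1366 CPM.

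Among classes of at least 15 cells, Slc40a1 was highest in C1q macrophage-like cells at pnd7, at 654 CPM in air and 334 CPM in hyperoxia, and in neutrophil-like cells at pnd60, at 561 and 700 CPM. At pnd60 those few neutrophil-like cells (31 and 60) held 23.0% and 35.9% of the Slc40a1 counts of their libraries. The next class at pnd60 was aerocyte endothelium-like, at 76.8 and 56.3 CPM, far below the neutrophils. At pnd7, the neutrophil-like cells of hyperoxia (14 cells) were too few to be ranked, and 57.1% of them held a count (35.7% thinned), against 61.1% (11.1% thinned) of C1q macrophage-like cells. In air pnd7 these shares were 56.3% (18.8% thinned) and 87.5% (43.8% thinned). A count of Slc40a1 was present in 67.7% and 65.0% of neutrophil-like cells at pnd60 (median 1748 and 1663 counts per cell), and in 48.4% and 46.7% after thinning to 1000 counts. In T cell-like cells, which should lack it, 0.220% and 0.185% held a count (median 2319.5 and 2486.5 counts per cell).

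Tfrc led in type II-like cells, the surfactant-making cells of the alveolus, at 156, 174, 281 and 264 CPM in the 4 unsorted libraries. They held 49.6% to 65.9% of its counts. At pnd7 the second class, B cell-like cells at 92.2 CPM from 8 counts in air and club cell-like cells at 131 CPM from 7 counts in hyperoxia, did not differ from it beyond counting error. At pnd60 the B cell-like and C1q macrophage-like classes, at 96.6 and 79.0 CPM, did. Slc11a1, the phagosome transporter, led in nonclassical monocyte-like cells, at 272, 167, 276 and 330 CPM, next to C1q macrophage-like or neutrophil-like cells, which in hyperoxia pnd7 and air pnd60 were within counting error of it. Slc11a2 led in ciliated cell-like cells at pnd60, at 104 and 176 CPM, and had no clear leading class at pnd7, where club cell-like cells stood at 33.4 CPM from 13 counts in air. In air pnd60 the club cell-like class, at 61.6 CPM, was within counting error of the ciliated class.

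Among the ranked classes, Blvrb led in C1q macrophage-like cells, at 712, 398, 158 and 197 CPM in air pnd7, hyperoxia pnd7, air pnd60 and hyperoxia pnd60, followed by B cell-like cells at 242, 231, 85.0 and 73.2 CPM. The second class was within counting error of the first in hyperoxia pnd7 only. Barcodes with at least 50% hemoglobin counts, nearly all outside the kept cells, were not ranked. With hemoglobin genes left out of their totals, their Blvrb took 3435 and 3717 CPM at pnd7 in air and hyperoxia. At pnd60 it took 595 and 948 CPM. Blvra led in alveolar macrophage-like cells, at 205, 185, 194 and 183 CPM, all within 183 and 205 CPM, and at pnd60 they held 54.3% and 51.1% of its counts. The 2 reductases thus led in different kinds of macrophage. In air pnd7 the C1q class at 137 CPM, and in hyperoxia pnd7 club cell-like cells at 149 CPM from 8 counts, were within counting error of the Blvra lead.

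Of the plasma proteins, Cp led in alveolar fibroblast-like cells except in air pnd60. Alveolar fibroblast-like cells held 438 and 399 CPM at pnd7 in air and hyperoxia, which was 67.6% and 80.9% of all Cp counts, and 861 and 994 CPM at pnd60. In air pnd60, club cell-like cells (15 cells) came first at 1003 CPM and adventitial fibroblast-like cells next at 911 CPM, and these 2 did not differ beyond counting error. A count of Cp was present in 84.1%, 72.5%, 90.0% and 90.0% of alveolar fibroblast-like cells, in 37.0%, 36.2%, 58.3% and 58.6% after thinning, and in 0% to 1.67% of T cell-like cells, where 0 of 81 cells in air pnd7 and 0 of 47 in hyperoxia pnd7 allow shares of cells with a count of up to 3.70% and 6.38%. Trf was highest in C1q macrophage-like cells, at 1855, 1093, 1449 and 1558 CPM, with type II-like cells next at pnd7 (1100 and 1026 CPM) and alveolar macrophage-like cells next at pnd60 (1070 and 1051 CPM). In hyperoxia pnd7 the first 2 did not differ beyond counting error. By counts, type II-like cells held 45.6% and 50.4% of Trf at pnd7 and 15.9% and 20.8% at pnd60.

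**Figure D4:**
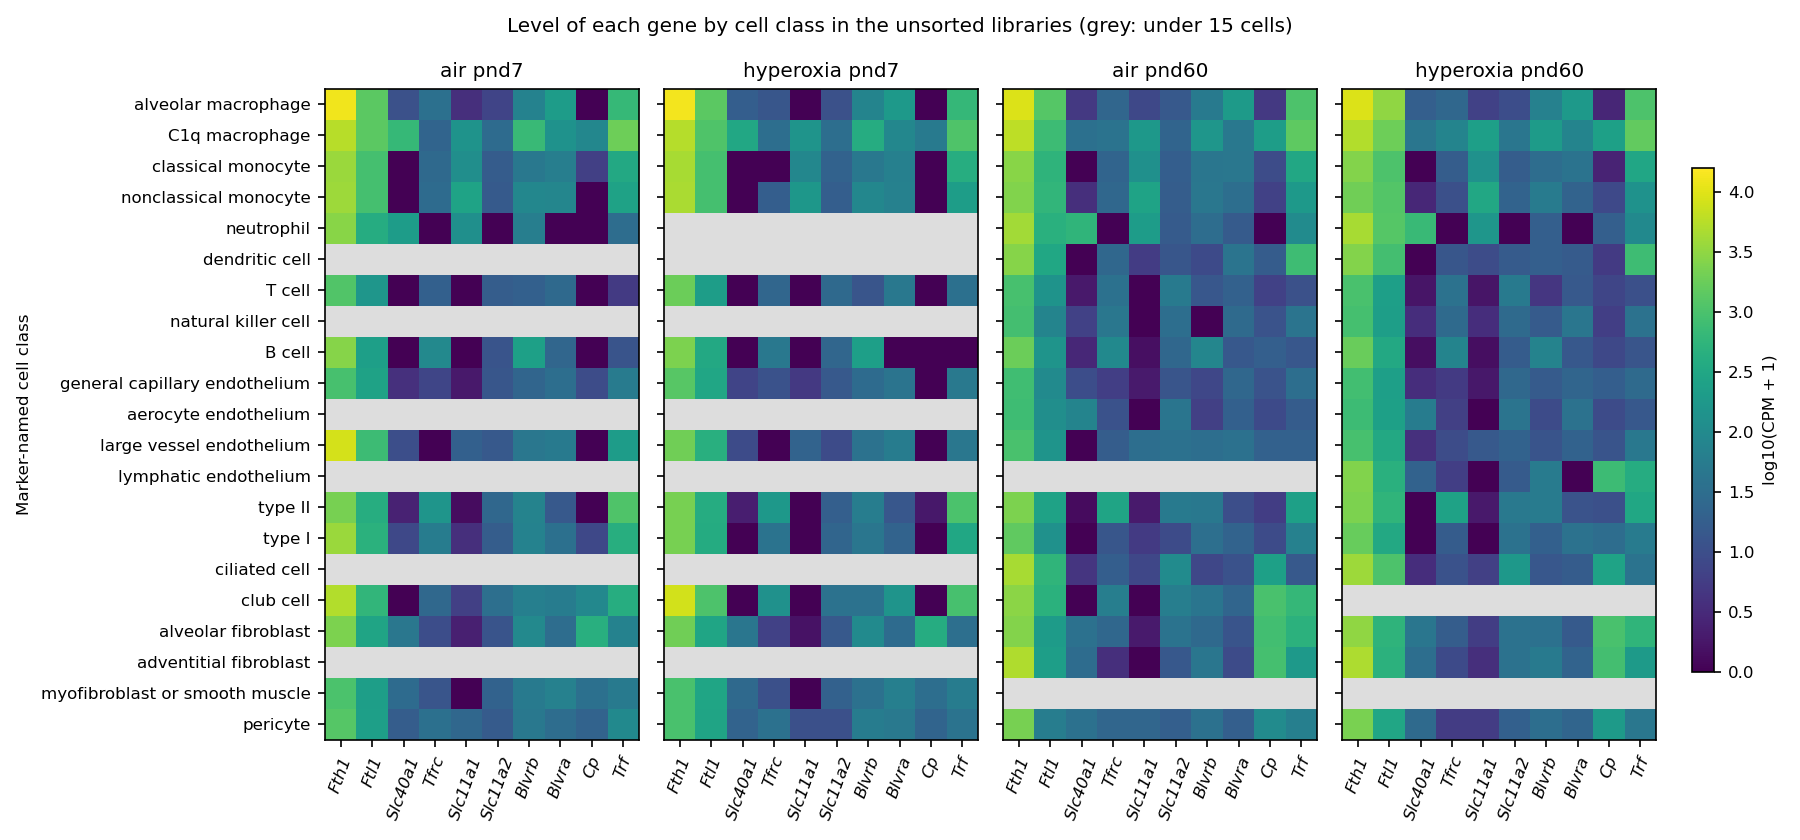
Level of each gene as log10(CPM + 1) by marker-named cell class in the 4 unsorted libraries, with classes of under 15 cells in grey. Fth1 and Ftl1 are brightest in alveolar macrophage-like cells, Tfrc in type II-like cells, Cp in the fibroblast-like classes and, at pnd60, also in club cell-like cells of air, and Slc40a1 in C1q macrophage-like cells at pnd7 and neutrophil-like cells at pnd60.

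The genes most like each member were ranked by Pearson correlation of log2(CPM + 1) over 60 pairs of a class and an unsorted library with at least 20 cells, among 16081 features. The pairs share libraries and depth, so these values are descriptions. For Fth1 they were Lgals3, Ftl1 and Cstb (each 0.76), and for Ftl1 they were Arl11 (0.77), Fth1 (0.76) and Creg1 (0.76). The 2 ferritin chains were therefore among the 3 genes most like each other. For Slc11a1 they were Clec4a1 (0.89), Pilrb1 (0.86) and Cd300ld (0.85), for Trf Cebpa (0.83), Lyz2 (0.80) and Cstb (0.76), and for Cp Serping1 (0.82), Specc1l (0.81) and Efcc1 (0.80). The likeness was lower for Slc40a1 (Ptpdc1, 0.69, Pdlim7, 0.66, and Gm11827, 0.66), Tfrc (Vcpkmt, 0.71, Mrps9, 0.69, and Prps2, 0.67), Slc11a2 (Hipk3, 0.72, Ppp5c, 0.70, and AW209491, 0.70), Blvrb (Ctsz, 0.70, Lgmn, 0.66, and B3gnt8, 0.58) and Blvra (Psma4, 0.73, Fam89b, 0.71, and Psma1, 0.71). With Fth1, the correlation of the members other than Ftl1 ran from -0.17 for Slc11a2 to 0.69 for Trf.

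The ages were compared in air and in hyperoxia, 2 comparisons that use the same 4 libraries as those of exposure. Over all cells in air, 1 of 10 members was past 2-fold at pnd60 against pnd7, namely Cp (1.12, 1.01 to 1.24), where 24.4% of 13003 features were. In hyperoxia it was Slc11a1 (1.29, 0.99 to 1.595), where 28.6% of 12923 features were. The medians of all features were 0.23 and 0.29, and those of the members -0.19 and 0.20. As a mean of each cell's CPM, the Cp ratio was 0.49 and the Slc11a1 ratio 0.77, so neither was past 2-fold. Libraries at pnd60 held 26.1% to 27.9% B cell-like cells, against 1.20% and 1.21% at pnd7, and library sums weigh the classes by such shares. These shares leave out unnamed clusters with raised B cell markers. Cluster 8, with B cell markers and hemoglobin genes among its leading genes, held 96 and 56 cells at pnd7 in air and hyperoxia, and 31 and 29 at pnd60. Cluster 49 held 0 and 0 at pnd7 and 19 and 15 at pnd60. The B cell-like shares at pnd7 are thus low by as much as cluster 8 holds B cells. Of the other iron and heme genes, 4 of 43 were past 2-fold higher in air, among them the hemoglobin binder Hp (1.62) and the hepcidin inducer Bmp6 (2.08), with Steap3 (2.33) and Steap4 (1.48), which reduce iron. Among the lower were Alas2 (-2.51) and Heph (-1.27). In hyperoxia 7 of 42 were higher and 4 lower, the higher ones being Bmp6 (2.41), Steap3 (1.79), Hp (1.55), Mcoln1 (1.38), Flvcr1 (1.16), Slc25a37 (1.03) and, just past 2-fold, Slc39a14. Among the lower ones were Alas2 (-3.10), Ltf (-2.99) and Heph (-1.34).

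Within classes, Trf differed with age in opposite directions. Several classes sat in different clusters at each age, and what this adds to their age ratios cannot be told apart from a difference within the same cells. Type II-like cells were nearly all in cluster 7 at pnd7 and in clusters 28 and 44 at pnd60, and alveolar fibroblast-like cells in cluster 25 at pnd7 and 43 at pnd60. Nonclassical monocyte-like cells were mostly in cluster 14 at pnd7 and all in 23 at pnd60, and type I-like cells in 4 and mostly 50. C1q macrophage-like (36), alveolar macrophage-like (19 and 20) and pericyte-like cells (11) shared their clusters at both ages. In type II-like cells Trf took 1100 CPM at pnd7 and 242 CPM at pnd60 in air, and 1026 and 315 CPM in hyperoxia, log2 ratios of -2.18 (-2.31 to -2.06) and -1.71 (-1.81 to -1.60). In alveolar fibroblast-like cells it took 72.8 and 490 CPM in air and 33.0 and 565 CPM in hyperoxia, log2 ratios of 2.75 (2.45 to 3.07) and 4.10 (3.70 to 4.53). In alveolar macrophage-like cells Trf was higher at pnd60 by 0.71 and 0.73. Over classes, the Trf interval lay below 0 in 6 and above 0 in 3 of 14 in air. In hyperoxia it lay below 0 in 6 and above 0 in 3 of 12. The library-wide Trf ratios were -0.33 and -0.24, and how the classes and their shares make them up was not tested. A Trf count was present in 96.0% and 95.0% of type II-like cells at pnd7 and in 63.1% and 67.2% at pnd60, and after thinning in 56.3%, 58.6%, 16.9% and 26.2%. In T cell-like cells 2.13% to 2.47% held one.

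Tfrc and Slc11a2 were higher at pnd60 than at pnd7 in type II-like cells, and Cp in alveolar fibroblast-like cells. Not every class shared this, and Tfrc stood at -2.20 (-4.52 to -0.59) in type I-like cells of air. Tfrc in type II-like cells took 156 CPM at pnd7 and 281 CPM at pnd60 in air (0.85, 0.67 to 1.03) and 174 and 264 CPM in hyperoxia (0.60, 0.43 to 0.78). Slc11a2 in the same cells took 24.3 and 53.3 CPM (1.14) and 17.96 and 49.1 CPM (1.45). Both of these uptake genes were thus higher in type II-like cells at pnd60, in which Trf was lower. Cp in alveolar fibroblast-like cells took 438 and 861 CPM in air (0.97, 0.83 to 1.12) and 399 and 994 CPM in hyperoxia (1.32, 1.18 to 1.46).

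The exporter Slc40a1 and the reductase Blvrb were lower at pnd60 in C1q macrophage-like cells. Slc40a1 took 654 CPM at pnd7 (91 counts in 16 cells) and 34.2 CPM at pnd60 (8 counts in 65 cells) in air, a log2 ratio of -4.26 (-5.51 to -3.22). In hyperoxia it took 334 CPM (73 counts in 18 cells) and 43.9 CPM (10 counts in 56 cells), a log2 ratio of -2.93 (-4.05 to -1.97). A count was present in 87.5% and 61.1% of these cells at pnd7 and in 6.15% and 5.36% at pnd60, and after thinning in 43.8%, 11.1%, 1.54% and 3.57%. The thinned shares at pnd60, and that of hyperoxia pnd7, rest on 1 or 2 cells each, so that no difference is read from them in hyperoxia. Blvrb took 712 and 158 CPM in air (-2.17) and 398 and 197 CPM in hyperoxia (-1.01). Blvrb was below 0 in 14 of 14 classes in air and in 12 of 12 in hyperoxia, with the interval below 0 in 7 and 4. Blvra was close to this, below 0 in 13 of 13 classes with a ratio in air and in 11 of 12 in hyperoxia. Its interval lay below 0 in 4 and 5. The share of all features that do so is not given here. In alveolar fibroblast-like cells the Blvrb ratios were -1.83 and -1.52. Blvrb RNA is abundant in the barcodes dominated by hemoglobin, which numbered 1215 and 1016 at pnd7 and 242 and 111 at pnd60, and the part of free RNA in the Blvrb ratios was not tested.

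Fth1 had no single age pattern. It was lower at pnd60 in alveolar macrophage-like cells, at log2 ratios of -0.46 and -0.48, and in nonclassical monocyte-like cells, at -0.64 and -1.24. It was higher in pericyte-like cells, at 0.82 and 1.20, and in hyperoxia in alveolar fibroblast-like cells, at 0.72. Over classes its interval lay below 0 in 9 of 14 and above 0 in 5 of 14 in air, and below 0 in 8 and above 0 in 3 of 12 in hyperoxia. Large vessel endothelium-like, type I-like and club cell-like cells of air pnd7, few in number, shallow or with 2.79% to 9.21% hemoglobin counts, gave the lowest of these ratios in air, down to -3.10.

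**Figure D5:**
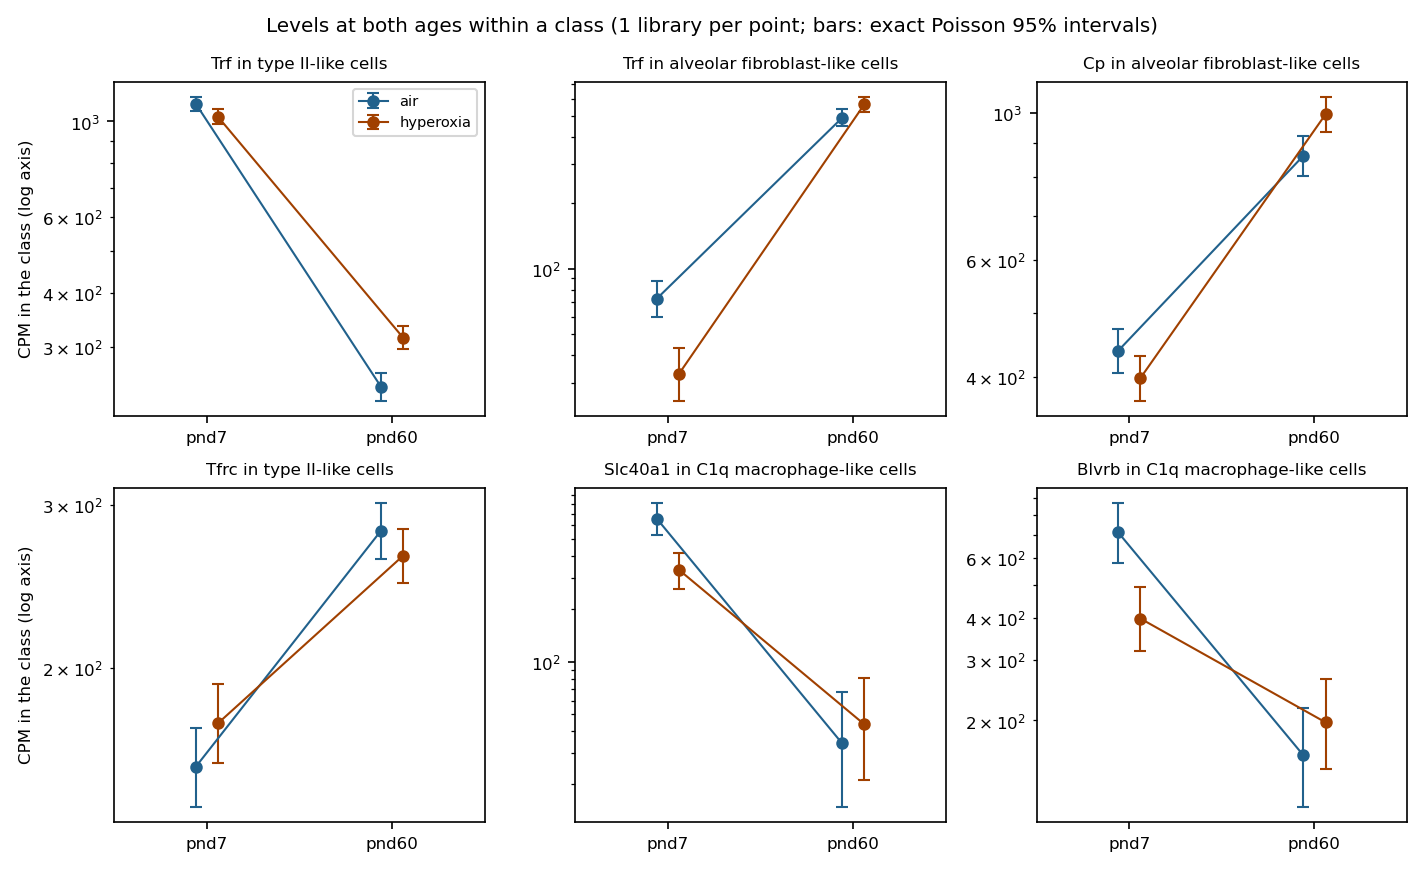
Level at pnd7 and pnd60 within a class for 6 pairs of a gene and a class, as CPM on a log axis, in air and hyperoxia, with 1 library per point and exact Poisson 95% intervals. Trf is lower at pnd60 in type II-like and higher in alveolar fibroblast-like cells, Cp and Tfrc are higher at pnd60, and Slc40a1 and Blvrb are lower at pnd60 in C1q macrophage-like cells.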

How the data were processed

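The authors deposited raw counts of RNA molecules per gene and barcode, made with Cell Ranger on mm10 per the labels, which also name Seurat 3.2.1. The matrix header gives software version 3.1.0. Barcodes were kept as cells if they had 700 to 8000 genes and less than 5% of counts from the 2 mitochondrial features. The 5 libraries were clustered together in scanpy 1.11.5 on 3000 variable features and 50 components at a resolution of 2, without integration of libraries, which the study used. Clusters were named from 25 marker lists. A name needed at least 3 markers raised at least 2-fold and a lead over the other lists. The lead was judged by the markers among the cluster's 10 genes of highest fold and by the share of markers raised. A cluster in which both macrophage lists were raised and neither led was named for both. Other clusters without such a lead stayed unnamed. These thresholds were set after clusters had been seen. Scrublet called 0.0433% to 3.28% of cells doublets, under 0.5% in both unsorted pnd7 libraries. Doublets were kept except in 1 alternative.

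Counts were summed, scaled to CPM, and compared with exact Poisson and binomial 95% intervals in scipy 1.17.1. Ratios past 2-fold need 100 counts over both groups. The intervals were tested on simulated Poisson counts of whole libraries. These hold no variation between cells beyond counting error, so that test checks the computation alone. Against 0 counts, ratios were bounded with 3 counts. The members and gene lists were chosen with earlier results of these data known. Besides the 10 members, the text names genes of 59 iron and heme genes past 2-fold, and the 3 genes most like each member. Among the iron and heme genes, 1 is not reported here by name. Genes, gene positions and sequences came from RefSeq GRCm38.p6 and GENCODE M21. Slc11a2 overlaps Gm5475, Blvra overlaps Gm31414 and Cp overlaps Hps3.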

Additional observations from a re-analysis of the deposited data

Results flagged for a closer look

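Tfrc stood on opposite sides of 0 at the 2 ages when hyperoxia was compared with air over all cells, with a log2 ratio of 0.28 (0.14 to 0.43) at pnd7 and of -0.17 (-0.29 to -0.06) at pnd60. With 1 library per condition the difference between these ratios was not tested.

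The barcodes whose counts are at least 50% hemoglobin, nearly all of them outside the kept cells and so in no comparison above, also held members. There were 1215 in air pnd7, 1016 in hyperoxia pnd7, 242 in air pnd60 and 111 in hyperoxia pnd60. Levels in them are CPM with hemoglobin genes left out of the total. Blvrb, known from red blood cells, took 3435 and 3717 at pnd7 in air and hyperoxia, a log2 ratio of 0.11 (0.01 to 0.22), while Blvra had 4 counts in each. Fth1 took 13915 and 14532 at pnd7, a log2 ratio of 0.063 (0.011 to 0.115). Tfrc, which young red blood cells carry, took 135 in air from 60 counts and 356 in hyperoxia from 141 counts, a log2 ratio of 1.397 (0.95 to 1.86). Ftl1 took 1784 in air and 3743 in hyperoxia at pnd60, a log2 ratio of 1.07 (0.62 to 1.51).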

How the results depend on the processing

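No paired analysis was possible because the conditions have no replicates, and for the same reason none could be left out. The alternatives covered the filter on cells, the scaling, means of each cell's CPM, thinning, doublets and the classes, and 2 more, the alveolar and the C1q kind of macrophage-like cells alone, were chosen after seeing the data. The counts of members past 2-fold stayed within 1.5 times the reported count in all but 7 cases, all of them comparisons of age. In air, the count of 1 became 5 with all barcodes, 2 relative to the median ratio of all features and 0 as a mean of each cell's CPM. In hyperoxia, it became 5, 2 and 0 in the same order, and 0 with cells thinned to 1000 counts. The cause was not tested. For the sorted library the counts ran from 6 to 8 over all cells and from 2 to 4 within macrophage-like cells. The log2 ratio of Ftl1 at pnd60 between hyperoxia and air ran from 1.17 to 1.25, and that of Fth1 between sorted and unsorted hyperoxia macrophage-like cells from 1.64 to 2.62. The leading class over all unsorted cells was the same under every alternative for 9 of 10 members, and for Cp it was club cell-like in place of adventitial fibroblast-like under 3. At resolution 1, which is among these 3, a cluster of 641 cells with raised fibroblast markers was unnamed and so was not ranked. Of the further values, which are ratios of single genes and counts of other iron and heme genes past 2-fold, 239 moved and 603 did not. A ratio was taken as moved outside its interval, and a count beyond 1.5 times the reported one. No call turned its direction. Values from fewer than 20 counts, or classes of fewer than 20 cells, are limited by depth.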
